A study of Homo sapiens with 12 samples.

Results

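ESCRT-III genes were followed across RNA sequencing libraries of A549 lung adenocarcinoma cells that were LKB1-intact or LKB1-deficient and had been given either PBS, a saline buffer, or AA, at what the labels call a high dose. The set holds 10 genes listed by symbol, CHMP2A, CHMP2B, CHMP3, CHMP4A, CHMP4B, CHMP4C, CHMP5, CHMP6, VPS4A and VPS4B, out of 20323 genes in the deposited tables. All 10 were found and all 10 passed the low-count filter, which kept 12718 genes. For a symbol that stood at more than 1 identifier the identifier with the highest total count was taken, which applied to VPS4A alone.

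The 4 groups of 3 libraries were LKB1-intact cells under PBS, LKB1-intact cells under AA, LKB1-deficient cells under PBS and LKB1-deficient cells under AA. The cells called intact here carry the genotype label WT, and those called deficient are titled con. A549 is an established human line that is generally described as lacking functional LKB1, and how either genotype was obtained is not given in the labels, nor are the concentration of AA (VitC in the titles, taken as ascorbate) and the exposure time. The labels call the cells of all groups pretreated, and do not tell whether a group's 3 libraries are 3 cultures or 1 culture prepared 3 times. The p-values therefore rest on library-to-library variation that could be purely technical.

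ESCRT-III proteins are small, charged subunits that polymerise into spiral filaments on the inside of membrane necks and draw them shut. CHMP6 seeds the polymer, CHMP4 proteins form most of the filament, CHMP2 and CHMP3 proteins bind it late and bring in the VPS4 ATPases, and VPS4A and VPS4B pull subunits out again with energy from ATP. The same machine sorts cargo into multivesicular bodies, ends cytokinesis and seals the nuclear envelope, and it is known for shedding damaged plasma membrane after pores of gasdermin D or of phosphorylated MLKL have let calcium in. The title of the study concerns pyroptosis, a lytic death carried out by gasdermin pores. Transcript levels do not show how much of a protein is assembled on a membrane.

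The cells were checked against their labels first. STK11, which encodes LKB1, stood at 23.6 to 25.4 CPM (estimated counts scaled to a common library size with TMM factors) in intact and 4.86 to 6.56 CPM in deficient libraries under PBS, and at 24.3 to 28.2 and 5.61 to 7.34 CPM under AA, so the genotypes did not overlap. Of the epithelial genes listed as markers, KRT8, KRT18 and KRT7 averaged 1350, 983 and 644 CPM. EPCAM, CDH1 and AKR1B10 averaged only 8.69, 1.33 and 1.13 CPM, and ALDH1A1 reached at most 1 count in a library. The epithelial check thus rests on the keratins. Of the leukocyte, endothelial and fibroblast markers, PTPRC, CD3E, COL1A2 and LUM had 0 or at most 1 count in any library, and CD68, CDH5 and COL1A1 carried nearly all of the summed levels. The summed endothelial markers ranged from 9.19 to 10.7 CPM in intact and 6.56 to 9.22 CPM in deficient cells under PBS, and from 3.21 to 4.29 and 0.719 to 1.68 CPM under AA, which is CDH5 for the most part. The summed epithelial markers, 7 genes, ranged from 2790 to 2890 CPM in intact and 2490 to 2730 CPM in deficient cells under PBS, and from 3900 to 4050 and 2530 to 2600 CPM under AA. These sums are mostly the keratins, which did not move together. In deficient cells KRT8 averaged 1270 CPM under PBS and 771 CPM under AA. KRT7 (598 and 780 CPM) and KRT18 (742 and 1001 CPM) were higher under AA there. The 4 leukocyte markers summed to 83.3 to 93.7 CPM under PBS and 103 to 111 CPM under AA, and the 4 fibroblast markers to 10.6 to 14.8 CPM. The part of these shifts in the results below was not tested. In bulk libraries, fewer cells that express a gene and less RNA per cell cannot be told apart. Estimated counts summed to 16055534 to 20306129 per library.

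The upstream sequences of 3 members are shown because their transcripts gave the contrasts described below: CHMP2A was higher under AA in both genotypes, and VPS4A and VPS4B are paralogues that went apart in deficient cells. Each run is the 250 bases before the gene start in RefSeq on GRCh38.p14, read 5′ to 3′ on the strand of the gene. The windows are CHMP2A at chr19:58555106-58555355, minus strand, VPS4A at chr16:69311100-69311349, plus strand, and VPS4B at chr18:63422477-63422726, minus strand. Capitals mark matches, on either strand, to any of 7 short motifs: the cyclic AMP response element TGACGTCA, the C/EBP-ATF element TGATGNAA, the AP-1 site TGANTCA, the E-box CACGTG, the CCAAT box CCAAT, the GC box GGGCGG and the ETS site CCGGAAG.
CHMP2A: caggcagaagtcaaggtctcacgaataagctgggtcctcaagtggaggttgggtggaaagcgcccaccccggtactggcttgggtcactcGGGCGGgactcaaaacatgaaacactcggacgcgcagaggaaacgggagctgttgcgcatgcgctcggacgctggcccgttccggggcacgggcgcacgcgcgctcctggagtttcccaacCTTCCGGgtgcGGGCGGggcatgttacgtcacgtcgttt
VPS4A: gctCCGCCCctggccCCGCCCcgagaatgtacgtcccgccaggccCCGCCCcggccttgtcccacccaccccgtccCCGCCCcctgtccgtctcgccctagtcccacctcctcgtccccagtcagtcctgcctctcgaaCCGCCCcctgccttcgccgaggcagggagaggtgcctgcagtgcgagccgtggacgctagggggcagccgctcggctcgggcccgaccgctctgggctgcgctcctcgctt
VPS4B: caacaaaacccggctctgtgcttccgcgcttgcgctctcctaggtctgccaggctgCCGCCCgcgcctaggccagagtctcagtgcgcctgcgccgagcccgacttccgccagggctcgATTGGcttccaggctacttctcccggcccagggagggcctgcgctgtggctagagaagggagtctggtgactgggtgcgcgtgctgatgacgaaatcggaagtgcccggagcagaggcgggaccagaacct

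The table of upstream sequences held 7 of the 10 members, which leaves CHMP3, CHMP4C and CHMP6. The ETS motif was found in the windows of CHMP2A, CHMP4A, CHMP4B and CHMP5, that is in 4 of 7, and in 8.52% of all 35116 windows of that length. CHMP2A held it at 1 place, 39 bases before the RefSeq gene start, and CHMP5 at 2 places, 125 and 49 bases before it. The CHMP5 window reaches past the earlier gene start that GENCODE gives, so both of its matches lie inside the gene as GENCODE draws it, and its sequence is not shown. The CHMP4A window lies wholly inside its gene as GENCODE draws it, with all of its matches. The CHMP4B window lies partly inside, with its GC box match but not its ETS match. The last bases of the CHMP2A, CHMP2B and VPS4B windows also lie inside their genes, but no match does. The GC box stood in 5 of 7 member windows and in 42.6% of all windows. VPS4A held 5 matches to it, VPS4B 1 and CHMP2A 2. None of the 7 member windows held the cyclic AMP element (1.65% of all windows), the C/EBP-ATF element (3.14%) or the AP-1 site (6.57%), which says only that these letters are not in these windows. The E-box was found in CHMP4A (6.34% of all windows), and the CCAAT box in CHMP4A and VPS4B (32% of all windows). No 2 of the motifs overlapped in the 3 windows shown. A match is a description of the sequence and not a bound site. The shares over all windows take every window in the table of upstream sequences. Those windows were not matched to the members in expression or gene type, and no enrichment was tested.

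The VPS4A window lies inside a second annotated gene that shares its symbol, described below. Between genes, levels were compared per transcript length, as FPKM (fragments scaled by transcript length and library size) from the deposited table. Averaged over the 12 libraries, CHMP4B (109 FPKM) and CHMP2A (108 FPKM) stood highest. Their ranges over libraries, 102 to 126 and 79.9 to 139 FPKM, overlapped. CHMP2B followed at 47.1 to 57.8 FPKM, then CHMP5 at 31.6 to 54.5, CHMP4A at 24.9 to 51.7 and CHMP3 at 31.7 to 38.7 FPKM, with CHMP2B overlapping CHMP5 and CHMP4A, and CHMP5, CHMP4A and CHMP3 overlapping one another. VPS4A (14.3 to 24.1 FPKM at the identifier used) and VPS4B (12.7 to 19.4 FPKM) also overlapped. CHMP6 (5.80 to 10.8 FPKM) and CHMP4C (4.44 to 7.66 FPKM) were the lowest and overlapped each other. The filament subunit CHMP4B was thus present at a far higher transcript level per length than the subunit that seeds it, CHMP6, in every library.

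**Figure D1:**
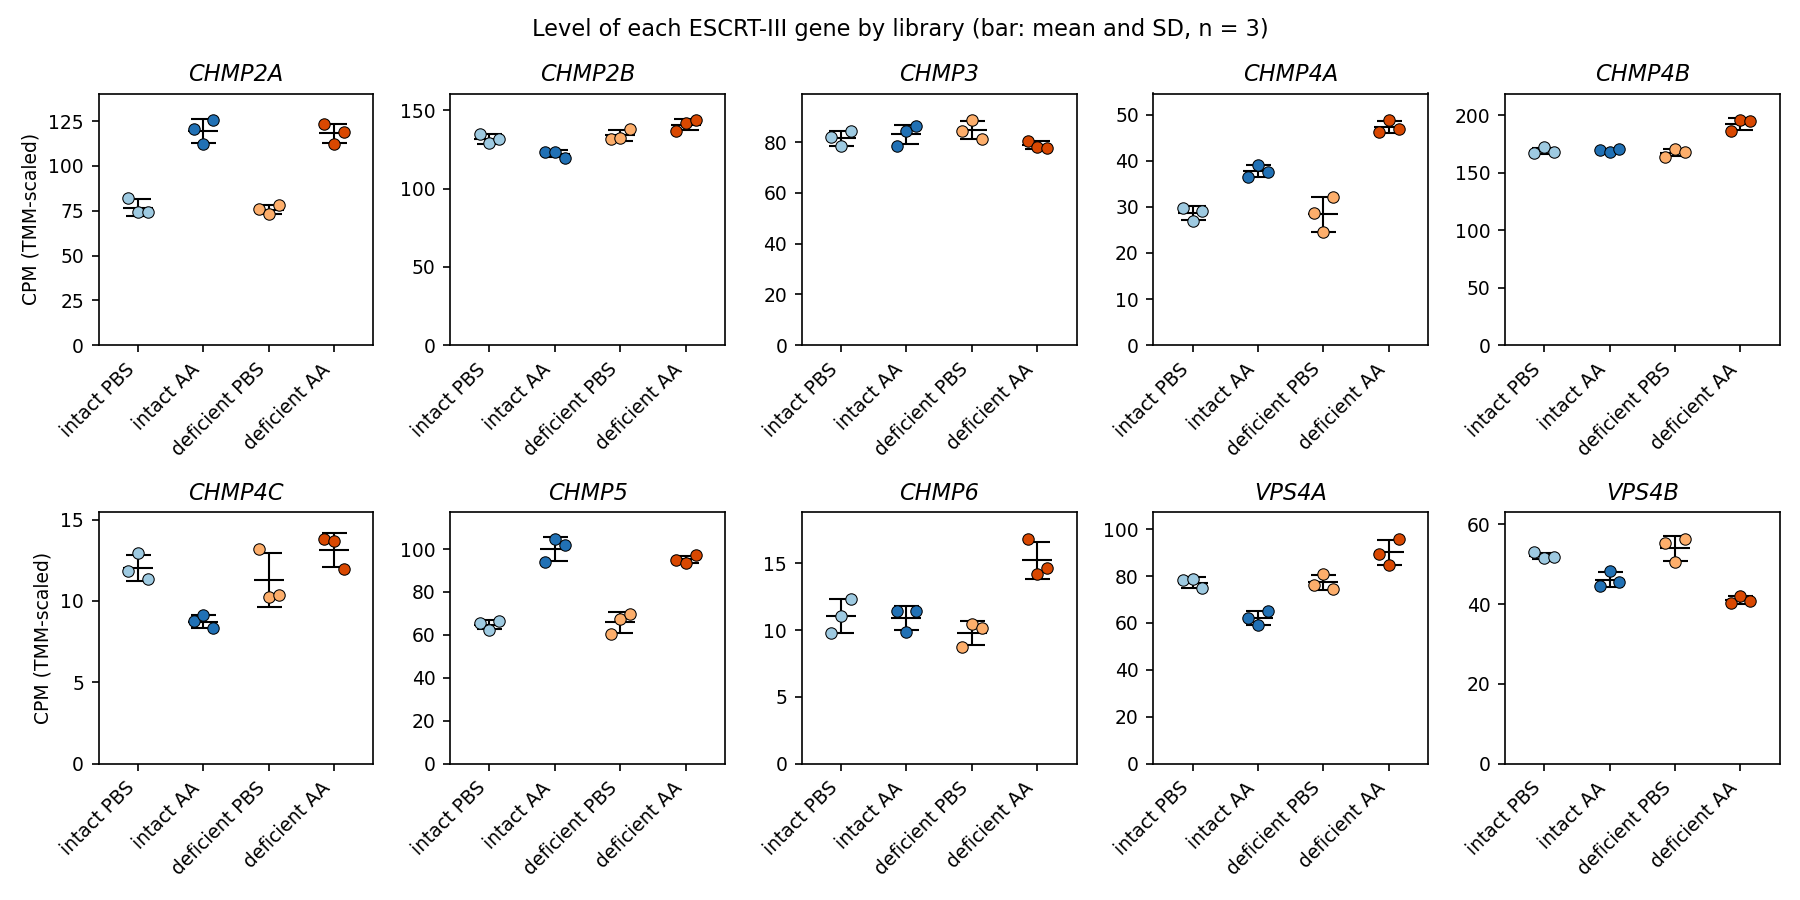
TMM-scaled CPM (vertical axes, from 0) of the 10 ESCRT-III genes in each library, with the 4 groups on the horizontal axes. Points are libraries and bars the mean and SD of 3. CHMP2A and CHMP5 are higher under AA in both genotypes, and VPS4A is lower under AA in intact cells (59.2 to 65.2 CPM) and higher in deficient cells (84.8 to 95.8 CPM).

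Under PBS no ESCRT-III gene was called between the genotypes. None of the 10 members was called between deficient and intact cells by edgeR at a Benjamini-Hochberg adjusted p under 0.05, against 0.275% of all genes tested (0.055% up and 0.22% down), and 0 had an unadjusted p under 0.05. DESeq2, limma-voom and limma on FPKM values also called 0. The largest difference was that of CHMP6, with a log2 value of -0.18 (SE 0.115, edgeR adjusted p = 0.717), and the 95% intervals of the 10 members lay between -0.42 and 0.16. VPS4A averaged 77.3 ± 3.30 CPM in deficient and 77.2 ± 2.18 CPM in intact cells (SD, n = 3 each). A p that misses the threshold does not show that the genotypes are alike, and the interval gives the size that these libraries leave possible.

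The AA response of LKB1-deficient cells was taken next. There 6 of the 10 ESCRT-III genes rose, CHMP2A, CHMP4A, CHMP4B, CHMP5, CHMP6 and VPS4A, and VPS4B and CHMP3 fell. In this comparison 74.4% of all genes were called, 37% up and 37.4% down, so that 8 called members of 10 is close to the share over all genes. The median log2 change of the members was 0.22, beside 0.01 over all genes tested. The libraries of the 2 conditions did not overlap for 8 of the 10 members, CHMP2B and CHMP4C being the exceptions, and for 75.5% of all genes tested. With a log2 change of at least 0.5 also required, CHMP2A, CHMP4A, CHMP5 and CHMP6 were called, 4 of 10 beside 39.7% of all genes. With upper quartile factors or library size only, CHMP2B and CHMP4C were called up and CHMP3 was not called, so that 8 rose and 1 fell. Log2 changes were higher with these factors, at 0.11 and 0.13 for CHMP2B (0.07 with TMM) and -0.06 and -0.05 for CHMP3 (-0.10 with TMM). The shares of all genes called up or down with them were not computed, so these counts have nothing to be set beside.

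The response of LKB1-intact cells had fewer rises. CHMP2A, CHMP4A and CHMP5 rose, CHMP2B, CHMP4C, VPS4A and VPS4B fell, and CHMP3, CHMP4B and CHMP6 were not called. Over all genes 69.8% were called, 34.5% up and 35.2% down, again close to the members' 7 of 10. The members' median log2 change was -0.01, and that over all genes 0.01. At a log2 change of at least 0.5, CHMP2A and CHMP5 were called, 2 of 10 beside 30.5% of all genes. With upper quartile factors the falls of CHMP2B and VPS4B were not called, which left 3 up and 2 down. The shares of all genes called with those factors were not computed.

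Whether a gene answered AA differently in the 2 genotypes was tested as the difference in AA effect, deficient minus intact, in the same fit. Of the 10 members, 7 were called, where 44.6% of all genes were. CHMP2B, CHMP4A, CHMP4B, CHMP4C, CHMP6 and VPS4A had the higher AA effect in deficient cells and VPS4B the lower one, against 21.6% of all genes higher and 23% lower. The members' median difference was 0.19 log2 and that of all genes -0.01. CHMP2A, CHMP3 and CHMP5 were not called. A difference of at least 0.5 was called for CHMP4C, CHMP6 and VPS4A, 3 of 10 beside 16.9% of all genes. This difference, like the direct contrast of the genotypes after AA, reuses the libraries of the 2 AA comparisons, so neither is independent of them.

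**Figure D2:**
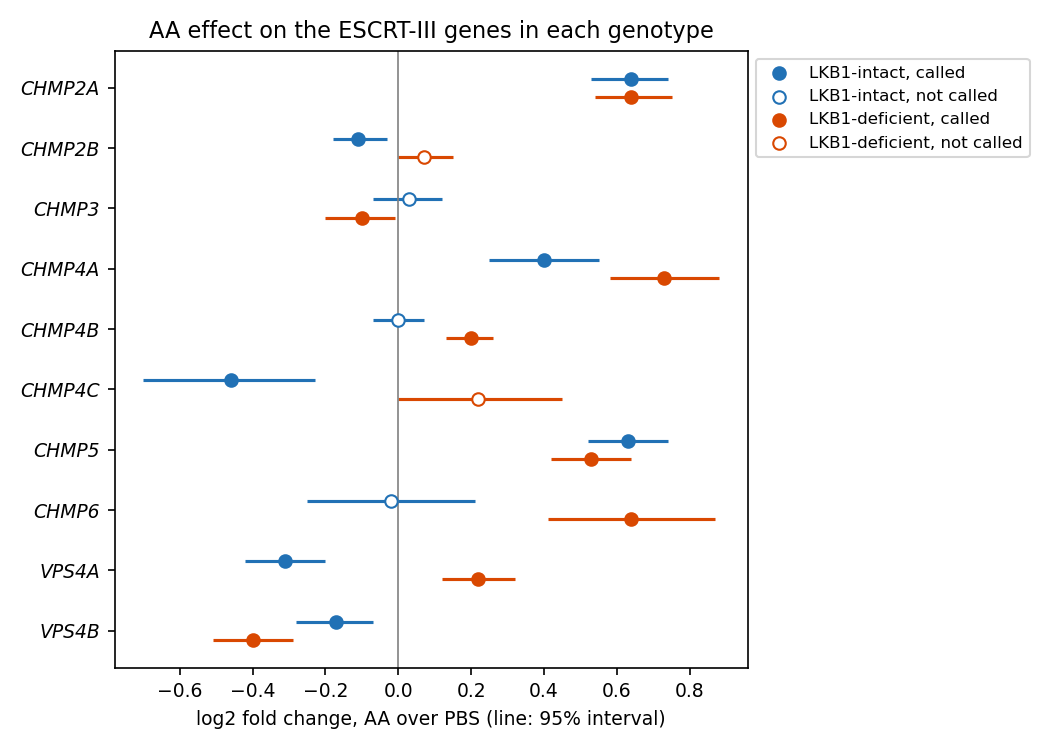
Log2 fold change of AA over PBS (horizontal axis) for the 10 ESCRT-III genes in LKB1-intact and LKB1-deficient cells, with 95% intervals from the edgeR fit. Filled points passed an adjusted p under 0.05. VPS4A lies at -0.31 in intact and 0.22 in deficient cells, while CHMP2A lies at 0.64 in both.

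Among the ATPases, VPS4A (ENSG00000132612; chromosome 16, 69311356 to 69326939, plus strand, protein-coding in GENCODE release 29 on GRCh38) changed in opposite directions in the genotypes. In intact cells it read 78.3, 78.7 and 74.7 CPM under PBS and 62.1, 59.2 and 65.2 CPM under AA. Deficient cells had 76.4, 81.0 and 74.6 CPM under PBS and 89.5, 84.8 and 95.8 CPM under AA. All 3 intact AA libraries lay below, and all 3 deficient AA libraries above, every PBS library. The log2 change was -0.31 in intact cells (SE 0.0512, edgeR adjusted p = 1.54e-05) and 0.22 in deficient cells (SE 0.0496, edgeR adjusted p = 0.000424), and the difference between these effects was 0.53 (SE 0.0713, edgeR adjusted p = 2.96e-06), the smallest p among the members.

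The deposited tables give the symbol VPS4A to a second identifier too, ENSG00000260914 (chromosome 16, 69299682 to 69322700, plus strand), which overlaps the first and is called AC026464.4 in the GENCODE annotation. A count estimator can split reads between them, so the level of either is uncertain as a single gene. The second identifier read 25, 26.0 and 25.3 CPM in intact cells under PBS, 22.6, 21.9 and 19.0 CPM under AA, and in deficient cells 28.4, 22.1 and 25.8 CPM under PBS and 25.3, 31.1 and 25.8 CPM under AA. Its deficient groups overlapped and its intact groups did not. Its log2 change was not called in deficient cells (0.11, SE 0.0913, edgeR adjusted p = 0.299) and was called in intact cells (-0.27, SE 0.0939, adjusted p = 0.015). Its difference in AA effect was 0.37 log2 (SE 0.131, edgeR adjusted p = 0.024). With both identifiers summed, an alternative added after the data had been seen, VPS4A changed by -0.30 log2 in intact and 0.19 in deficient cells, with a difference of 0.49 (edgeR adjusted p = 2.01e-07).

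VPS4B, the other ATPase (chromosome 18, 63389190 to 63422483, minus strand), fell in both genotypes. It read 53.1, 51.6 and 51.7 CPM in intact cells under PBS and 44.6, 48.3 and 45.7 CPM under AA. Its level in deficient cells went from 55.3, 50.5 and 56.4 CPM to 40.3, 42.2 and 40.7 CPM. The lowest levels were those of the deficient AA libraries, and within each genotype the AA libraries lay below the PBS libraries. The log2 changes were -0.17 (SE 0.0525, edgeR adjusted p = 0.00556) in intact and -0.40 (SE 0.053, edgeR adjusted p = 7.1e-07) in deficient cells. The intact fall did not pass with upper quartile factors (-0.11, adjusted p = 0.0618) or on FPKM values (limma, -0.14, adjusted p = 0.145). The difference between the effects, -0.22 (edgeR adjusted p = 0.0194), had the highest p of the 7 called ones and was lost without intact AA replicate 2 (-0.19, edgeR adjusted p = 0.0539), without deficient PBS replicate 3 (-0.19, adjusted p = 0.0533), with library size only (adjusted p = 0.0772) and on FPKM values (limma, adjusted p = 0.12 with a pseudocount of 1).

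The make-up of the VPS4 pair differed between PBS and AA in deficient cells. VPS4A made up 52.2 ± 4.25% (SD, n = 3) of the summed VPS4A and VPS4B FPKM in deficient cells under PBS and 63.7 ± 1.84% under AA. In intact cells the shares were 53.6 ± 1.35% and 50.8 ± 2.25%. The 3 deficient AA libraries, at 61.8 to 65.4%, lay above all other libraries, which ranged from 48.0 to 56.5%.

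**Figure D3:**
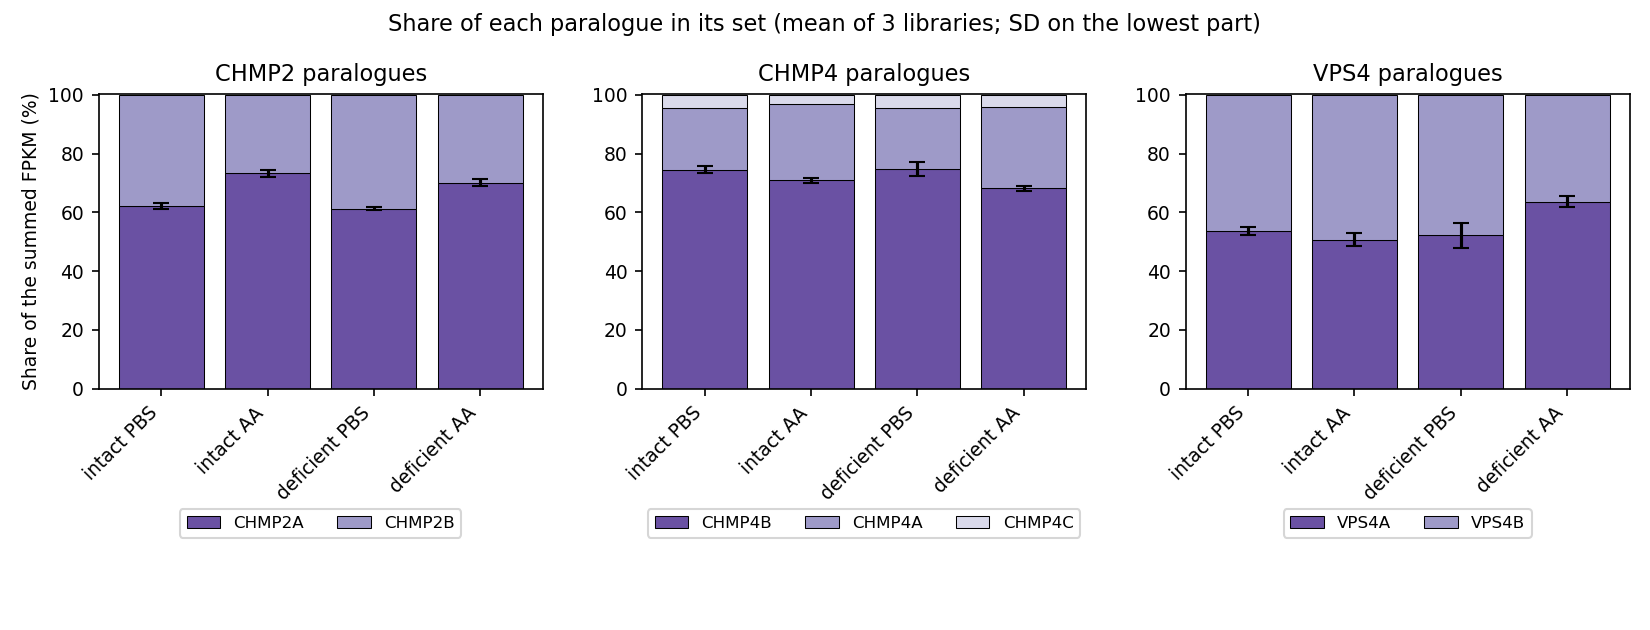
Share (%, vertical axis) of each paralogue in the summed FPKM of its set, by group, as the mean of 3 libraries, with the SD on the lowest segment. VPS4A takes 63.7% of the VPS4 sum in deficient cells under AA and 50.8 to 53.6% in the other groups, and CHMP2A takes a larger share of the CHMP2 sum under AA in both genotypes. The second VPS4A identifier is not counted.

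CHMP6 (ENSG00000176108; chromosome 17, 80991598 to 81009517, plus strand) links the cargo-binding ESCRT complexes to the filament and starts its growth. It read 9.75, 11.1 and 12.3 CPM in intact cells under PBS and 11.4, 9.89 and 11.4 CPM under AA, groups that overlapped. Deficient cells had 8.76, 10.4 and 10.1 CPM under PBS and 16.8, 14.2 and 14.6 CPM under AA. The deficient AA libraries stood above all 9 others. CHMP6 rose 1.56-fold in deficient cells (log2 0.64, SE 0.109, edgeR adjusted p = 1.9e-05), its log2 change in intact cells was -0.02 (SE 0.111, adjusted p = 0.892), and the AA effects differed by 0.66 log2 (SE 0.156, edgeR adjusted p = 0.00158).

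The filament genes of the CHMP4 group behaved unequally. CHMP4B, the most abundant of them (chromosome 20, 33811304 to 33854366, plus strand), read 164, 170.4 and 168 CPM under PBS and 186, 196 and 195 CPM under AA in deficient cells, a log2 change of 0.20 (SE 0.0324, edgeR adjusted p = 1.12e-05) with no overlap. In intact cells it read 167, 172 and 168 CPM under PBS and 170.3, 168 and 170.5 CPM under AA, with a log2 change of 0.00 (95% interval -0.07 to 0.07). The AA effects differed by 0.20 log2 (SE 0.0459, edgeR adjusted p = 0.00144). With the length trend described below removed, CHMP4B was at -0.03 in deficient cells (edgeR adjusted p = 0.397) and was called lower in intact cells (-0.15, adjusted p = 0.00026).

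CHMP4A (chromosome 14, 24209583 to 24213869, minus strand), which binds the adaptor ALIX like its paralogues, rose in both genotypes and more in deficient cells. Under PBS it read 29.8, 26.9 and 29.2 CPM in intact and 28.6, 24.5 and 32.1 CPM in deficient cells. Under AA it read 36.5, 39.1 and 37.5 CPM in intact and 46.2, 48.7 and 46.9 CPM in deficient cells. The AA groups overlapped neither each other nor the PBS groups. CHMP4A rose 1.32-fold in intact cells (log2 0.40, SE 0.0739, edgeR adjusted p = 6.05e-05) and 1.66-fold in deficient cells (log2 0.73, SE 0.0726, edgeR adjusted p = 7.23e-09), and these effects differed by 0.33 log2 (SE 0.104, edgeR adjusted p = 0.0122).

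CHMP4C, the paralogue that serves the abscission checkpoint at the end of cell division, was the least abundant and moved otherwise. It read 11.8, 12.9 and 11.3 CPM in intact cells under PBS and 8.77, 9.12 and 8.33 CPM under AA, without overlap, a log2 change of -0.46 (SE 0.112, edgeR adjusted p = 0.000945). Levels in deficient cells were 13.2, 10.3 and 10.4 CPM under PBS and 13.8, 13.7 and 11.9 CPM under AA, which overlapped, and its log2 change of 0.22 did not pass (SE 0.108, edgeR adjusted p = 0.0677). Without deficient PBS replicate 1, the high PBS library, this change was 0.35 and passed (edgeR adjusted p = 0.00846), as it did without deficient AA replicate 3 (0.28, adjusted p = 0.0351), with upper quartile factors (0.26, adjusted p = 0.0313) and with library size only (0.28, adjusted p = 0.0247). The difference in AA effect was the largest among the members, 0.69 log2 (SE 0.155, edgeR adjusted p = 0.00105).

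Within the CHMP4 sum, CHMP4B held 74.6 ± 1.09% of the FPKM in intact and 74.7 ± 2.43% in deficient cells under PBS, and 71.0 ± 0.804% and 68.2 ± 0.822% under AA (SD, n = 3 each). CHMP4A went from 20.9 ± 1.37% to 25.8 ± 0.739% in intact and from 20.9 ± 2.30% to 27.7 ± 0.483% in deficient cells. CHMP4C held 3.01 to 5.11% in any library.

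CHMP2A (ENSG00000130724; chromosome 19, 58551566 to 58555124, minus strand), a late subunit needed to bring VPS4 to the filament, rose in both genotypes. It read 82.0, 74.2 and 74.1 CPM in intact cells under PBS and 120.3, 112 and 125 CPM under AA. In deficient cells it went from 75.7, 73.2 and 78.0 CPM to 123, 112 and 119 CPM. All 6 AA libraries stood above all 6 PBS libraries. The rise was 1.56-fold in each genotype (log2 0.64, SE 0.0497 in intact and 0.05 in deficient cells, edgeR adjusted p = 2.47e-10 and 1.34e-10), and the difference between these effects was 0.01 log2, with a 95% interval of -0.14 to 0.15.

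CHMP2B, its paralogue, in which mutations cause a form of frontotemporal dementia, moved little. It read 135, 129 and 132 CPM in intact cells under PBS and 124, 124 and 119.8 CPM under AA, a log2 change of -0.11 (SE 0.0356, edgeR adjusted p = 0.0106). In deficient cells it read 132, 132 and 138 CPM under PBS and 137, 142 and 144 CPM under AA, groups that overlapped (log2 0.07, SE 0.0352, edgeR adjusted p = 0.0714). That value passed in the edgeR fit when PBS replicate 3 (0.09, adjusted p = 0.0413) or AA replicate 1 (0.09, adjusted p = 0.0436) of the deficient cells was left out, with library size only (0.13, adjusted p = 0.00251) and with upper quartile factors (0.11, adjusted p = 0.00782), and the fall in intact cells did not pass with upper quartile factors (-0.05, adjusted p = 0.274). The AA effects differed by 0.18 log2 (SE 0.0501, edgeR adjusted p = 0.00573). CHMP2A made up 62.2 ± 1.11% of the CHMP2 FPKM in intact and 61.3 ± 0.413% in deficient cells under PBS, and 73.3 ± 1.19% and 70.2 ± 1.3% under AA (SD, n = 3 each).

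CHMP3, the partner of CHMP2A at the filament, stayed within 77.7 to 88.5 CPM over all 12 libraries. Its log2 change was 0.03 in intact (SE 0.0454, edgeR adjusted p = 0.628) and -0.10 in deficient cells (SE 0.0455, edgeR adjusted p = 0.0447). The deficient call was lost with DESeq2 (adjusted p = 0.0795), with RLE (0.0538) or upper quartile factors (0.209), with library size only (0.36), with the 6 deficient libraries alone (0.066), and when any 1 of 4 libraries was left out (PBS replicate 1, 0.0636, PBS replicate 2, 0.224, AA replicate 2, 0.0913, and AA replicate 3, 0.103), and on FPKM values the change had the other sign (limma, 0.04, adjusted p = 0.596). With the length trend described below removed, the fall in deficient cells was called at -0.15 log2 (edgeR adjusted p = 0.00346). A read-through gene, RNF103-CHMP3, overlaps CHMP3 on chromosome 2, and reads may be split between them.

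CHMP5 (ENSG00000086065; chromosome 9, 33264879 to 33282069, plus strand), which binds the VPS4 cofactor LIP5, rose in both genotypes like CHMP2A. It went from 65.7, 62.2 and 66.5 CPM to 94.0, 105 and 102 CPM in intact cells. In deficient cells it went from 60.5, 67.4 and 70.0 CPM to 94.7, 93.6 and 97.1 CPM, so that AA and PBS libraries did not overlap in either genotype. CHMP5 rose 1.55-fold in intact (log2 0.63, SE 0.0513, edgeR adjusted p = 5.13e-10) and 1.44-fold in deficient cells (log2 0.53, SE 0.0516, edgeR adjusted p = 5.73e-09). The difference between these effects was -0.10 log2 (edgeR adjusted p = 0.276), with a 95% interval of -0.25 to 0.05.

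Compared directly under AA, 7 of the 10 members were called between deficient and intact cells, where 59% of all genes were, 28.7% higher and 30.3% lower. CHMP2B, CHMP4A, CHMP4B, CHMP4C, CHMP6 and VPS4A were higher in deficient cells, by 0.18 (CHMP4B) to 0.59 (CHMP4C) on the log2 scale, and VPS4B was lower by a log2 value of -0.17. VPS4A averaged 90.0 ± 5.51 CPM in deficient and 62.2 ± 2.99 CPM in intact cells (SD, n = 3 each), a 1.45-fold difference (edgeR adjusted p = 6.96e-09). The VPS4B call was lost without intact AA replicate 2 (-0.14, edgeR adjusted p = 0.0526), with library size only (-0.11, adjusted p = 0.076) and on FPKM values (limma, adjusted p = 0.114 with a pseudocount of 1). For CHMP2A the difference under AA was -0.01 log2 (95% interval -0.11 to 0.08), and for CHMP5 it was -0.07 (95% interval -0.18 to 0.03). With the length trend described below removed, CHMP5 (-0.12, edgeR adjusted p = 0.0276) and CHMP3 (-0.10, adjusted p = 0.0486) were also called lower, which makes 9 of 10 members beside 58.9% of all genes. At a log2 difference of at least 0.5, CHMP4C and VPS4A were called, 2 of 10 beside 19.7% of all genes.

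AA effects also varied with transcript length. In deficient cells the median log2 change was 0.31 over the shortest of 3 equal length classes of tested genes, -0.02 over the middle class and -0.31 over the longest. In intact cells these medians were 0.23, -0.02 and -0.24. Effective lengths, derived from the deposited counts and FPKM, were 905 bases for CHMP2A and 972 for CHMP4A, with 5.38% and 6.72% of tested genes shorter, and 4106 for VPS4A and 3277 for VPS4B, with 76.5% and 64.1% shorter. The AA effects were therefore fitted again with this trend removed from each library.

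With the trend removed, 8 of 10 members were called in deficient cells, where 70.7% of all genes were, and 5 of 10 in intact cells, where 65% were. CHMP2A kept its rise in both genotypes at a smaller size, 0.24 log2 in deficient (edgeR adjusted p = 5.2e-05) and 0.30 in intact cells (adjusted p = 3.63e-06). CHMP5 rose by 0.39 and 0.54. CHMP4A rose by 0.34 in deficient cells, while its rise in intact cells was no longer called (0.09, adjusted p = 0.3). CHMP4B changed as given above. CHMP6 rose by 0.41 in deficient cells.

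The opposite moves of VPS4A stood in that fit, with 0.45 log2 in deficient (edgeR adjusted p = 1.66e-08) and -0.13 in intact cells (adjusted p = 0.0262). VPS4B was at -0.25 in deficient cells, and its fall in intact cells was not called (-0.07, adjusted p = 0.281). CHMP2B was called up in deficient cells (0.10, adjusted p = 0.0176) and no longer called in intact cells (-0.08, adjusted p = 0.05). The difference in AA effect moved less: the 7 members called before were called again, from -0.19 (VPS4B) to 0.63 (CHMP4C), and CHMP3 was added at -0.16 (adjusted p = 0.0394), which makes 8 of 10 beside 45% of all genes.

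**Figure D4:**
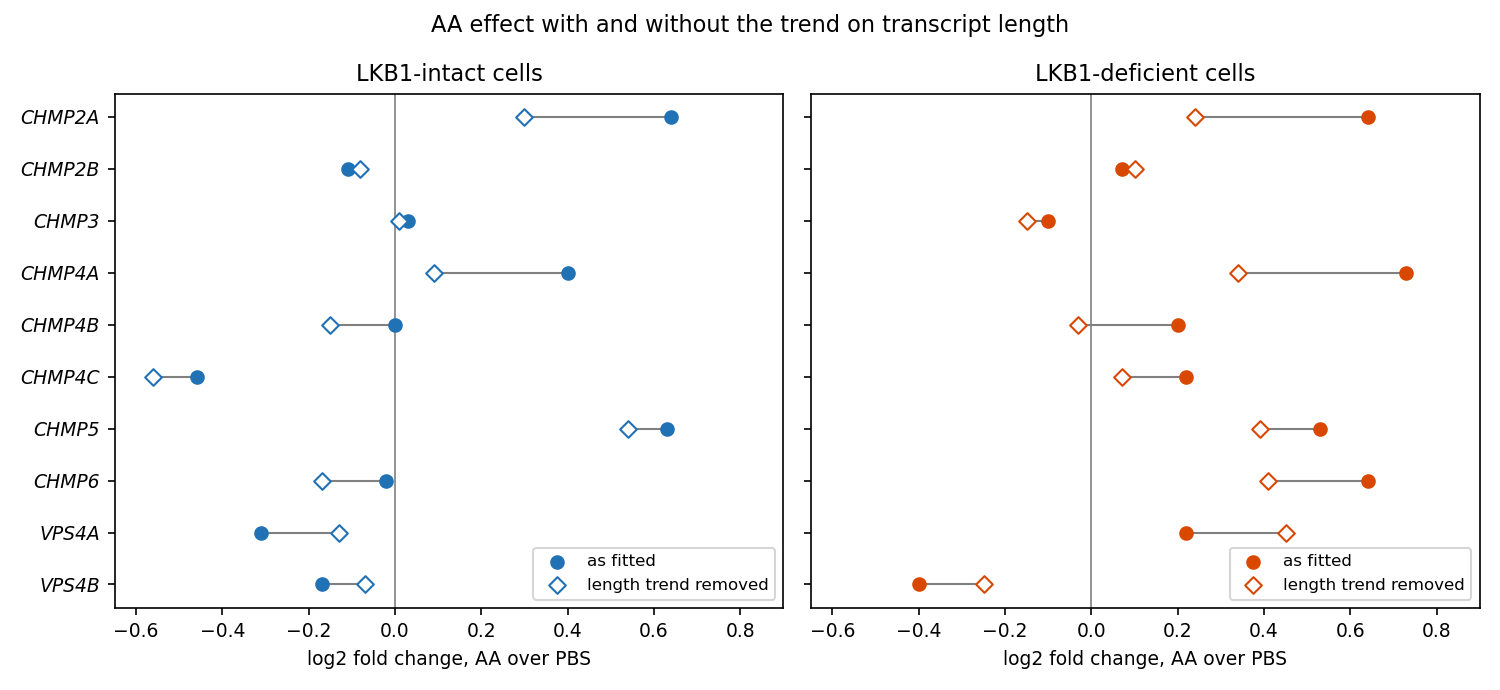
Log2 fold change of AA over PBS (horizontal axes) for each ESCRT-III gene in LKB1-intact and LKB1-deficient cells, as fitted (circles) and with the trend on transcript length removed (diamonds). The short genes CHMP2A and CHMP4A move toward 0, while VPS4A moves from 0.22 to 0.45 in deficient cells and from -0.31 to -0.13 in intact cells.

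The remaining ESCRT-III subunits were described from a list of CHMP1A, CHMP1B, CHMP7 and IST1. CHMP1B, which recruits spastin and the VPS4 cofactors, rose in both genotypes, by 0.53 log2 in deficient (SE 0.0587, edgeR adjusted p = 4.06e-08) and 0.24 in intact cells (SE 0.0609, adjusted p = 0.00132). CHMP7, which starts ESCRT-III assembly at the nuclear envelope, fell in both, by a log2 change of -0.38 and -0.24. CHMP1A fell in deficient cells (log2 -0.44, edgeR adjusted p = 2.51e-06) and had a log2 change of -0.01 in intact cells, and IST1 had -0.13 and 0.02, of which the first was called (adjusted p = 0.00885). The difference in AA effect was called for CHMP1A (-0.42), CHMP1B (0.29) and IST1 (-0.15), beside the 44.6% of all genes given above.

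The upstream complexes ESCRT-0, I and II bind ubiquitinated cargo and bring in CHMP6. Of 13 tested genes of a 15-gene list, 8 rose and 3 fell in deficient cells, and 6 rose and 7 fell in intact cells. The AA effect was higher in deficient cells for 7 and lower for 0. Over all genes the shares called were 37% up and 37.4% down, 34.5% and 35.2%, and 21.6% and 23%. The list's medians were 0.19, -0.27 and 0.24 log2, beside 0.01, 0.01 and -0.01 over all genes. Unless stated otherwise, counts, medians and values of this and the other gene lists come from the fit with the length trend left in. MVB12A, an ESCRT-I subunit, rose 2.14-fold in deficient and 1.55-fold in intact cells, and UBAP1, another, 1.67-fold and 1.42-fold. HGS, the ESCRT-0 subunit that binds ubiquitin at endosomes, went from 125 ± 10.5 to 142 ± 3.85 CPM in deficient and from 128 ± 2.32 to 103 ± 3.85 CPM in intact cells (SD, n = 3 each), a difference in AA effect of 0.49 log2 (SE 0.0673, edgeR adjusted p = 3.6e-06), the direction seen for VPS4A. VPS37C had a log2 change of -0.90 in intact cells and of -0.20 in deficient cells, where it was not called (edgeR adjusted p = 0.0594). The ESCRT-II subunit VPS36 fell in both, with -0.57 in intact and -0.53 in deficient cells.

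Adaptors and regulators of ESCRT-III went both ways, with 6 of 13 tested genes up and 4 down in each genotype and a difference called for 6, 4 of them higher in deficient cells. These counts are near the shares of all genes called, 74.4%, 69.8% and 44.6%, and the list's medians were 0.04, 0.02 and -0.02 log2. MITD1, a midbody protein that binds ESCRT-III, rose by 0.76 log2 in deficient cells (SE 0.0542, edgeR adjusted p = 3.53e-11), and its AA effect was higher there by 0.55. PTPN23, a Bro1-domain adaptor for CHMP4, fell by 0.74 in deficient and by 0.47 in intact cells on the log2 scale. PDCD6, the calcium sensor ALG-2 that brings ALIX and ESCRT-III to wounded membrane, rose by 0.27 in intact cells (SE 0.0363, edgeR adjusted p = 9.06e-07), and its AA effect was lower in deficient cells by a log2 value of -0.26 (adjusted p = 0.000351). With the length trend removed its intact change was -0.01 (adjusted p = 0.693).

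Of the other plasma membrane repair genes on the list, 20 of 21 were tested. In deficient cells 7 rose and 9 fell, and in intact cells 12 rose and 5 fell. The AA effect was higher in deficient cells for 3 and lower for 9. Of all genes 74.4%, 69.8% and 44.6% were called, split up and down as given above. The list's medians were -0.05, 0.18 and -0.21 log2, and those of all genes 0.01, 0.01 and -0.01. CAVIN1, the caveolar coat protein, fell from 532 ± 14.6 to 181 ± 8.70 CPM in deficient and from 565 ± 17.1 to 400.2 ± 3.81 CPM in intact cells (SD, n = 3 each), and EHD2, which stabilises caveolae, had an AA effect lower by a log2 value of -0.68 in deficient cells (edgeR adjusted p = 4.03e-08). ANXA1, a calcium-dependent annexin of the repair cap, rose by 0.63 log2 in deficient and 0.49 in intact cells. CAPNS1, the calpain small subunit, rose by 0.58 in intact and 0.38 in deficient cells, and with the length trend removed the deficient value was -0.02. These lists were chosen with earlier results of the same data known.

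Among the genes whose products open the membrane, GSDME, a gasdermin cleaved by caspase-3, had an AA effect higher by 0.32 log2 in deficient cells (SE 0.0527, edgeR adjusted p = 4.17e-05), as had NINJ1, which ruptures the membrane of dying cells, by 0.39 (SE 0.116, adjusted p = 0.00948). The change of NINJ1 within deficient cells, 0.21 log2, was -0.13 with the length trend removed. MLKL, the pore-forming effector of necroptosis, rose by 0.26 log2 in deficient and 0.24 in intact cells (SE 0.0527 and 0.0529, adjusted p = 0.000139 and 0.000433), and GSDMD did not pass the low-count filter.

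The genes whose levels followed VPS4A most closely over the 12 libraries, among 9728 others with a mean log2 CPM of at least 3, were BCL2L1 (Pearson r of log2 CPM 0.975), GLIS2 (0.969) and UBE2J2 (0.966). Those closest to CHMP2A, which had the smallest p among members for AA in deficient cells, were CFD (0.993), P4HA1 (0.990) and UQCRC2 (0.989). These values are descriptions over 12 points that share 4 groups, and the points of a group lie together. Among the members themselves CHMP2A and CHMP5 were the most alike (0.96), VPS4A was most like CHMP2B (0.87), and VPS4B ran opposite to CHMP2A and CHMP6 (-0.86 each).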

How the data were processed

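RNA of 12 A549 libraries (4 groups of 3) was sequenced after oligo(dT) selection, per the labels' protocols. The authors deposited estimated counts per gene, in which 10.9 to 11.5% of values per library are not whole. They also deposited FPKM values, scaled by the authors for length and library size. The submitters' processing notes name RSEM, StringTie 1.3.1, HISAT2 2.1.0, Bowtie2 2.2.8 and fastp 0.18.0, without stating what each did. Genome build and strand setting were not given in the sources used here, and positions are those of GENCODE release 29 for the same identifiers. Library totals were 16055534 to 20306129, and counts differed between libraries of a group by more than sampling noise (chi-square per degree of freedom 1.99 to 4.29).

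Estimated counts were rounded and fitted in 1 edgeR 4.0.16 quasi-likelihood model (R 4.3.3) over the 4 groups, with TMM factors, a low-count filter at a minimum count of 10 and Benjamini-Hochberg adjustment over 12718 genes, called at 0.05. The procedure was tested on simulated data in which few genes changed, in the deficient AA group alone, and which held no length trend. It was not tested on data where most genes change, as they were called to do under AA here. Alternatives used DESeq2 1.42.0, limma 3.58.1 (voom, or log2 of FPKM plus 1 or 0.1), other factors and filters, stricter thresholds, a replicate block, the 6 libraries of a comparison alone, removal of a lowess trend on transcript length from each library, and each library left out. Summing overlapping identifiers was added after the data had been seen. All 10 members are named. From each context list, up to 2 called genes of smallest p per comparison are named, and any of the 4-gene lists. The members and lists were chosen with earlier results of these data known.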

Additional observations from a re-analysis of the deposited data

Results flagged for a closer look

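The AA effect differed between the genotypes, by the edgeR interaction test, for 7 ESCRT-III genes. On the log2 scale, deficient minus intact, the difference was 0.69 for CHMP4C, 0.66 for CHMP6, 0.53 for VPS4A, 0.33 for CHMP4A, 0.20 for CHMP4B, 0.18 for CHMP2B and -0.22 for VPS4B, beside 44.6% of all genes called in this test.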

How the results depend on the processing

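Of 1340 values of single members over 27 settings, 1227 kept their direction and their side of the threshold, 50 lost the call, 18 gained one, and 45 changed sign, 4 of them called in either setting and 41 in neither. This pool includes the PBS comparison, where no setting called a member. It also includes stricter thresholds on the main fit, which cannot change a direction. Single calls varied more: CHMP3 in deficient cells kept its call and direction in 11 of 27 settings. With a log2 change of at least 0.5 required, the members called were 4 in deficient cells, 2 in intact cells, 3 for the difference in AA effect and 2 between genotypes under AA, beside 39.7%, 30.5%, 16.9% and 19.7% of all genes. With each library left out in turn, 7 to 9, 7 to 7, 6 to 8 and 6 to 7 members were called in these comparisons, and 0 to 0 under PBS. The deviations gave no sign that the replicate numbers pair the libraries. Those of same-numbered libraries correlated at -0.094 to 0.054 over 18 pairs, and those of other-numbered libraries at -0.053 to 0.083 over 36. This does not show that the libraries were prepared without pairing. With the replicate block 7, 7, 7 and 7 members were called, and 0 under PBS, where the fit without it gave 8, 7, 7, 7 and 0. CHMP3 in deficient cells lost its call there (edgeR adjusted p = 0.0584). The shares of all genes called with a library left out or with the block were not computed. In the main fit they were 74.4%, 69.8%, 44.6% and 59%, and 0.275% under PBS. A steady count of members is therefore no result about the members alone.

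CHMP3 in deficient cells changed sign on FPKM values (0.04 with either pseudocount), and the cause was not tested. Other reversals came with the length trend removed: CHMP4B at -0.03 in deficient and -0.15 in intact cells, PDCD6 at -0.37 and -0.01, CAPNS1 at -0.02 and NINJ1 at -0.13 in deficient cells, MITD1 at -0.12 in intact cells, and ANXA1 at 0.00 between genotypes under AA. CHMP4C and CHMP6, the members with the lowest counts, had the largest standard errors of the 10, and the part of depth in this was not tested.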
